A study of Mus musculus with 48 samples.

Results

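Core autophagy genes were followed in the thoracic aorta of mice given β-aminopropionitrile (BAPN), an inhibitor of lysyl oxidase that weakens the cross-links of collagen and elastin in the vessel wall. The 41 genes were found in the table by their symbols, out of 18782 genes listed, and encode the proteins that start, build, load and finish an autophagosome. All 41 were among the 14431 genes that passed the filter on low counts, and the lowest count of any member in any library was 65. RNA was sequenced from 48 C57BL/6J wild-type mice, 1 library per mouse. Control males (MaCon, n = 10) and control females (FeCon, n = 10) drank normal water. The other mice drank water with 0.4% BAPN over 28 days, starting at the age of 3 weeks, and were divided by outcome into mice without a detectable lesion (MaNonAD, n = 4; FeNonAD, n = 8) and mice with aortic dissection or aneurysm (MaAAD, n = 7; FeAAD, n = 9). NonAD and AAD were therefore outcomes of one treatment and not assigned groups, and mice that died of rupture were not sequenced. The comparisons addressed how the aortic transcriptome of each sex differed with BAPN exposure and with disease.

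Autophagy encloses cytoplasm in a double membrane that fuses with the lysosome. The ULK kinase complex starts the process, the class III PI3-kinase complex marks the growing membrane with a lipid signal, ATG9, ATG2 and WIPI proteins supply and bind lipid, and a pair of ubiquitin-like conjugation systems attaches proteins of the ATG8 family to the membrane, where cargo receptors dock. In vascular smooth muscle, the main cell of the aortic media, autophagy is known for the turnover of damaged organelles. Transcript levels measure the supply of this machinery and do not measure autophagic flux.

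Library totals ranged from 13548000 to 17281273 counts with a median of 15681340, and no libraries were identical. Levels are given as CPM, counts scaled to library size with TMM factors, and a member was called when edgeR's quasi-likelihood test gave a Benjamini-Hochberg adjusted p under 0.05 over all 14431 genes, with no minimum fold. Ddx3y, a Y-linked gene, had at most 1 count in a female library and at least 599 in a male library. The contractile smooth muscle markers were present in every group, with summed CPM of 32878 to 73849 in MaCon and 35856 to 62733 in FeCon. Heart muscle markers were highest in FeCon10 at 749 summed CPM, MaAAD7 at 505 and MaCon6 at 357, against group medians between 61.6 and 135. Adipocyte markers were highest in MaAAD1 at 5992 summed CPM.

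The clock genes Arntl and Dbp, whose RNA cycles in opposite phases over the day, separated some groups. Arntl was at 27.2 CPM or more in 9 of 10 MaCon libraries and at 1.62 CPM in the other, at 11.4 CPM or less in every MaNonAD library and at 8.04 CPM or less in every MaAAD library. In females it ranged from 2.03 to 41.9 CPM in FeCon, from 1.18 to 63.8 CPM in FeNonAD and from 2.35 to 39.6 CPM in FeAAD, with medians of 25.1, 4.97 and 6.90 CPM. Dbp had its lowest median in MaCon (66.0 CPM), against 294 CPM in MaNonAD and 241 CPM in MaAAD, and the female medians were 299 CPM for FeCon, 289 CPM for FeNonAD and 183 CPM for FeAAD. Fkbp5, known to be induced by glucocorticoids, had a median of 235 CPM in FeCon and of 55.6 to 97.1 CPM in the other 5 groups, and its part in the results against FeCon was not tested. Per the methods, the mice were killed in the morning right after stool had been taken in randomized order, and the hour for each mouse was not given in the sources used here. Counts of members are therefore also given from a fit with Arntl and Dbp as covariates, which was added after the data were seen. Shares of all genes are given for the fit without these covariates only. Changes in the member counts under the covariates can therefore not be set against those of all genes.

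In males with AAD, 16 members were lower and 3 were higher than in MaCon. Of all genes tested, 16.1% were lower and 18.9% were higher. In females with AAD, 21 members were lower and 4 were higher than in FeCon, where 20.6% of all genes were lower and 23.8% were higher. The median log2 fold change of the 41 members was -0.17 in males and -0.24 in females, beside -0.03 and 0.00 over all genes tested. With the clock genes as covariates, 20 members were lower and 4 higher in MaAAD, and 21 were lower and 2 higher in FeAAD. With libraries scaled by their size only, 9 were lower in MaAAD. Of the lower members, 12 were called in both sexes, which was 75% of the male list and 57.1% of the female list. Of all genes, 1429 (9.9%) were lower in both sexes, out of 2329 lower in MaAAD and 2972 lower in FeAAD. Only Lamp2 was higher in both sexes, beside 14.9% of all genes, and 31 members were called in at least 1 sex, beside 54.4% of all genes. None was called in opposite directions.

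Every change within a sex was below 1 in size on the log2 scale, and the log2 fold changes of the 41 members over the 6 comparisons within a sex lay between -0.91 and 0.57. The ranges of MaAAD and MaCon did not overlap for 6 members, Atg4b, Atg12, Atg14, Atg16l1, Atg16l2 and Lamp2, beside 8.91% of all genes. The ranges of FeAAD and FeCon did not overlap for 2 of the 41 members, Atg13 and Tax1bp1, a share close to the 4.89% of all genes. FeAAD5 was the lowest FeAAD library for Ulk1, Atg13, Atg14, Ambra1, Sqstm1 and Optn and had the highest macrophage and neutrophil marker sums of its group, and MaAAD7 was the lowest male one for Ulk1, Atg13, Atg14, Ambra1 and Optn and had the highest macrophage, neutrophil and heart muscle marker sums of MaAAD (4168, 241 and 505 CPM). Without FeAAD5 21 members were lower and 3 higher in FeAAD, and without MaAAD7 13 were lower and 3 higher in MaAAD.

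**Figure D1:**
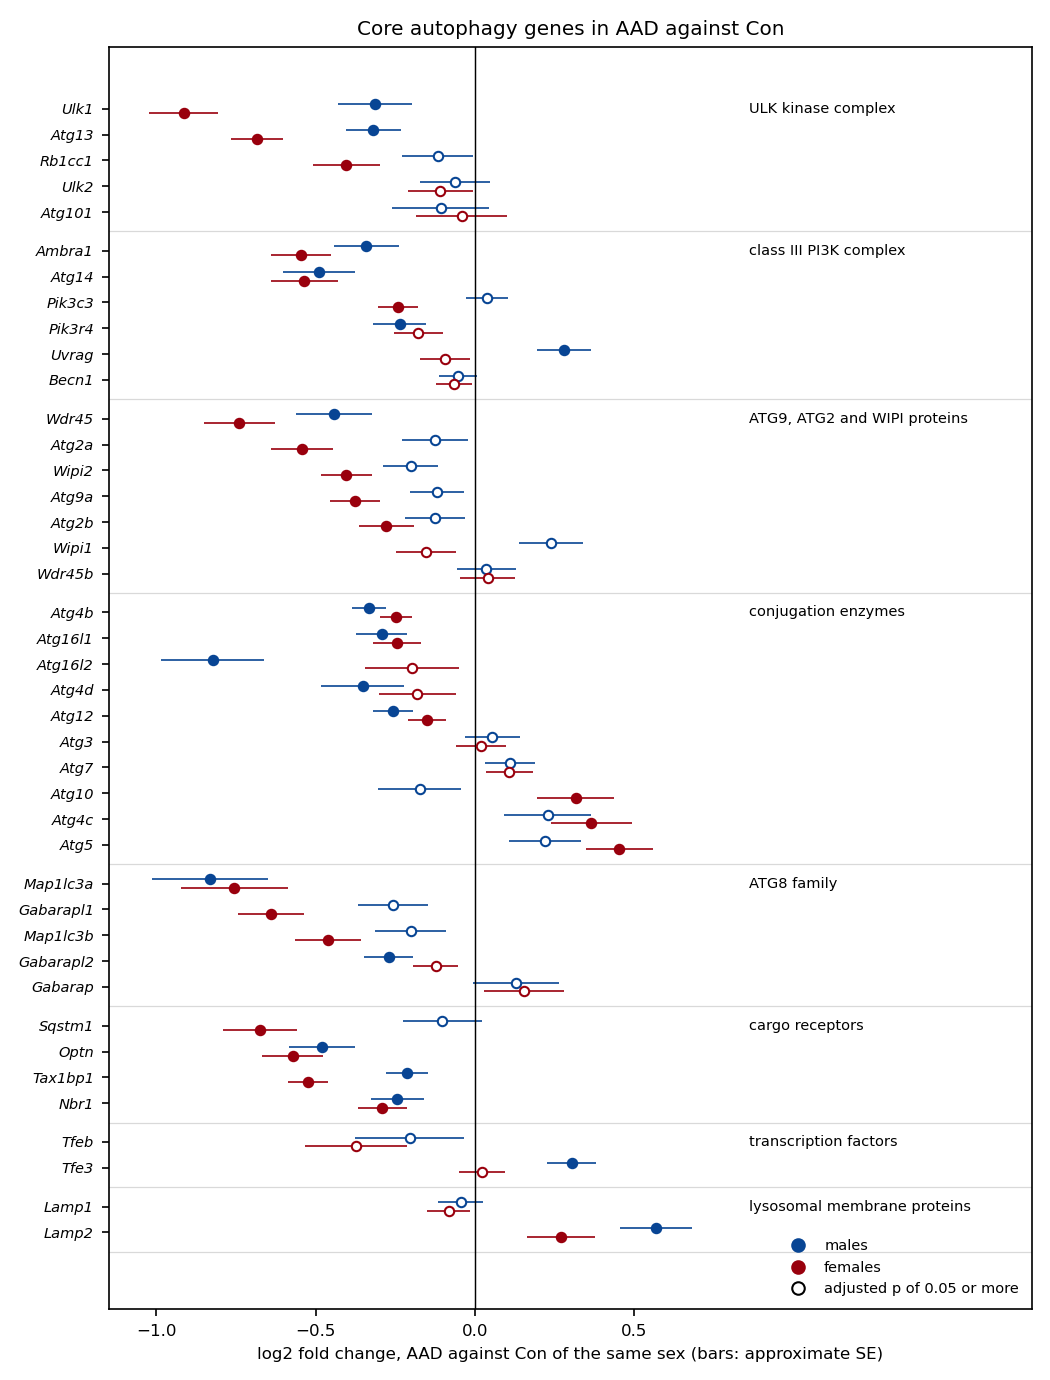
Log2 fold change (x axis) of each of the 41 members, grouped by role (y axis), in MaAAD against MaCon (blue) and FeAAD against FeCon (red), with approximate standard errors as bars and open circles for members that were not called. Most filled points lie left of 0, and Lamp2 is the member with filled points of both sexes to the right.

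AAD aortas also differed in cell type markers. All 12 contractile smooth muscle markers were lower in AAD in both sexes, with a median summed CPM of 24131 in MaAAD against 48823 in MaCon and 25109 in FeAAD against 51093 in FeCon. All 10 macrophage markers were higher in both sexes, with sums of 938 to 4168 CPM in MaAAD against 236 to 604 in MaCon, and of 699 to 6150 CPM in FeAAD against 286 to 679 in FeCon. Neutrophil markers were higher for 5 of 6 tested in MaAAD and 6 of 6 in FeAAD, and none of the 7 was at 0 in every library of an AAD group. All 6 proliferation markers were higher in AAD of both sexes. Of 8 T and B cell markers, 2 were higher in MaAAD and 4 in FeAAD than in Con, and none was lower. In BAPN mice without a lesion, 3 of these markers were higher in MaNonAD and 1 in FeNonAD. Fibroblast marker sums were 14395 to 27078 CPM in MaAAD against 9928 to 13105 in MaCon and 14305 to 28282 CPM in FeAAD against 9158 to 13766 in FeCon, with 4 of 8 markers higher in MaAAD and 3 higher and 2 lower in FeAAD. Of the 10 heart muscle markers 6 were lower in FeAAD and 1 in MaAAD. In whole tissue, fewer cells of a type and less RNA per cell cannot be told apart, and the part of these markers in the changes of the members was not tested.

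The ULK complex phosphorylates downstream factors when nutrients fall. Its kinase Ulk1 had a lowest, median and highest level of 94.1, 127 and 184 CPM in FeCon, 74.1, 85.6 and 96.0 CPM in FeNonAD and 48.2, 74.7 and 96.3 CPM in FeAAD. In males it was at 80.5, 91.0 and 112 CPM in MaCon and 54.5, 73.7 and 91.9 CPM in MaAAD, and at 83.7, 74.9, 78.8 and 94.8 CPM in the 4 MaNonAD libraries. FeCon thus stood above the other 5 groups, with only its lowest libraries inside their range. Ulk1 fell by 46.9% in FeAAD against FeCon (log2 fold change -0.91 ± 0.11 SE, edgeR adjusted p = 6.84e-09), the largest fall of any member. In MaAAD it was lower with a log2 fold change of -0.31 ± 0.12 (adjusted p = 0.0318), a call that was lost without MaAAD7 (adjusted p = 0.108), MaAAD1 (0.0811), MaCon5 (0.0596), MaNonAD2 (0.0587) or MaNonAD3 (0.0604), and with upper quartile factors (0.0845), library size only (0.101), no filter on low counts (0.0565) or the replicate block (0.0806).

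Atg13, the regulatory subunit that links ULK1 to its scaffold, was at 71.7, 84.3 and 102 CPM in FeCon, 56.4, 57.3 and 68.2 CPM in FeNonAD and 36.3, 53.0 and 64.3 CPM in FeAAD. No FeNonAD or FeAAD library reached the lowest FeCon library. In males Atg13 was at 58.6, 67.1 and 79.8 CPM in MaCon and 47.6, 55.1 and 62.9 CPM in MaAAD, with the 4 MaNonAD libraries at 60.1, 59.7, 67.4 and 73.9 CPM. Its log2 fold change was -0.68 ± 0.08 in FeAAD (adjusted p = 6.92e-09) and -0.32 ± 0.09 in MaAAD (adjusted p = 0.00356). Rb1cc1, the scaffold FIP200, was lower in FeAAD with a log2 fold change of -0.40 ± 0.11 (adjusted p = 0.00155) and had a log2 fold change of -0.12 in MaAAD that was not called. Its levels were 30.7, 47.9 and 54.6 CPM in FeCon and 28.7, 32.3 and 39.0 CPM in FeAAD, so the groups overlapped. Ulk2, the second ULK kinase, and Atg101, a partner of ATG13, were called in neither sex, with log2 fold changes of -0.06 and -0.11 in males and -0.11 and -0.04 in females.

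In the class III PI3-kinase complex, which makes the lipid phosphatidylinositol 3-phosphate, 1 subunit rose and 3 regulators or subunits fell in MaAAD, beside 18.9% and 16.1% of all genes, while in FeAAD the log2 fold changes of all 6 members were negative and 3 were called lower, beside 20.6% of all genes. Atg14, which directs the complex to autophagy, was at 17.5, 20.7 and 23.3 CPM in MaCon and 10.7, 15.2 and 17.1 CPM in MaAAD, ranges that did not overlap. The 4 MaNonAD libraries were at 21.1, 16.6, 15.6 and 22.4 CPM, spread over both. In females Atg14 was at 17.7, 23.2 and 29.0 CPM in FeCon and 10.1, 15.8 and 20.2 CPM in FeAAD, with FeNonAD between them at 15.8, 19.8 and 22.4 CPM. The log2 fold change in AAD was -0.49 ± 0.11 in males (adjusted p = 0.000583) and -0.54 ± 0.11 in females (adjusted p = 4.8e-05). Ambra1, a positive regulator of the complex, was lower with a log2 fold change of -0.34 ± 0.10 in MaAAD (adjusted p = 0.00699) and -0.54 ± 0.09 in FeAAD (adjusted p = 7.27e-06). Its libraries were at 52.4, 58.4 and 69.2 CPM in MaCon, 38.3, 48.8 and 56.2 CPM in MaAAD, 54.1, 72.4 and 94.1 CPM in FeCon and 30.6, 50.5 and 57.6 CPM in FeAAD, so AAD lay low in both sexes with overlap.

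Uvrag, the subunit that takes the place of ATG14 in the endosomal form of the complex, rose in MaAAD (log2 fold change 0.28 ± 0.08, adjusted p = 0.00717). It was at 34.0, 37.2 and 47.1 CPM in MaCon, 40.2, 48.0 and 49.1 CPM in MaAAD and 49.1, 45.3, 40.6 and 44.8 CPM in MaNonAD. The female levels of 37.7, 46.6 and 58.3 CPM in FeCon and 33.4, 47.2 and 51.9 CPM in FeAAD gave a log2 fold change of -0.09 that was not called, and with the clock genes as covariates the male rise was not called either (log2 fold change 0.20, adjusted p = 0.0829). Becn1, the core subunit beclin 1, was called in neither sex (-0.05 in males and -0.07 in females). Pik3r4, the regulatory subunit VPS15, was lower in MaAAD (-0.24, adjusted p = 0.0212). That call was lost without MaAAD1 (0.0964), MaAAD7 (0.0539) or MaCon5 (0.0711), and with library size only (0.119) or upper quartile factors (0.0881). In FeAAD Pik3r4 was not called (-0.18), but was with the clock genes as covariates (-0.23, adjusted p = 0.0283) and without FeCon10 (-0.20, adjusted p = 0.0309). Pik3c3, the lipid kinase itself, was lower in FeAAD (-0.24, adjusted p = 0.00141) and at 0.04 in MaAAD. Its female call was lost with library size only (-0.17, adjusted p = 0.054). The deposited counts of Pik3c3 were not whole numbers in 47 of 48 libraries, so reads were shared out between genes and its values are uncertain.

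Among the proteins that bring lipid to the growing membrane, 5 of 7 members were lower in FeAAD and 1 of 7 in MaAAD, beside 20.6% and 16.1% of all genes. The difference between the sexes in these counts was not tested. Wdr45, also named WIPI4, binds the lipid transfer protein ATG2 and was the member of this set called in both sexes. It was at 42.5, 52.2 and 65.0 CPM in FeCon, 33.1, 37.3 and 43.1 CPM in FeNonAD and 26.8, 30.5 and 44.8 CPM in FeAAD, and nearly every BAPN female lay below the controls. In males it was at 38.3, 45.7 and 70.3 CPM in MaCon, 26.9, 34.9 and 54.3 CPM in MaAAD and 38.9, 54.2, 50.5 and 46.0 CPM in MaNonAD. The log2 fold change was -0.74 ± 0.11 in FeAAD (adjusted p = 7.25e-07) and -0.44 ± 0.12 in MaAAD (adjusted p = 0.00318).

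Atg2a, which encodes one of the paired lipid transfer proteins, was lower in FeAAD with a log2 fold change of -0.54 ± 0.10 (adjusted p = 1.24e-05) and had a log2 fold change of -0.13 in MaAAD that was not called. Its libraries were at 56.7, 77.4 and 93.9 CPM in FeCon, 51.9, 61.3 and 70.8 CPM in FeNonAD and 32.9, 52.4 and 74.9 CPM in FeAAD, and in males at 49.4, 60.5 and 67.7 CPM in MaCon, 63.2, 64.5, 58.9 and 60.9 CPM in MaNonAD and 44.5, 55.0 and 70.2 CPM in MaAAD. The FeAAD libraries overlapped with those of all 3 male groups. Atg2b, its paralogue, Atg9a, the lipid scramblase, and Wipi2, which recruits the conjugation machinery, were lower in FeAAD with log2 fold changes of -0.28, -0.38 and -0.40, and were not called in MaAAD with -0.12, -0.12 and -0.20. With the clock genes as covariates Atg2b was not called in FeAAD (-0.16, adjusted p = 0.24) and Wipi2 was lower in MaAAD too (-0.30, adjusted p = 0.00642), as it was without MaAAD5 (-0.27, adjusted p = 0.0103). The FeAAD call of Atg2b was also lost with library size only (-0.20, adjusted p = 0.0896). Wipi1, a second binder of phosphatidylinositol 3-phosphate, was not called in AAD of either sex (0.24 in males and -0.15 in females), and neither was Wdr45b (0.04 and 0.04). The male rise of Wipi1 passed in DESeq2, with the 3 other scalings of libraries and with the clock genes as covariates (0.28, adjusted p = 0.0206), a fit in which its female value turned to 0.07.

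**Figure D2:**
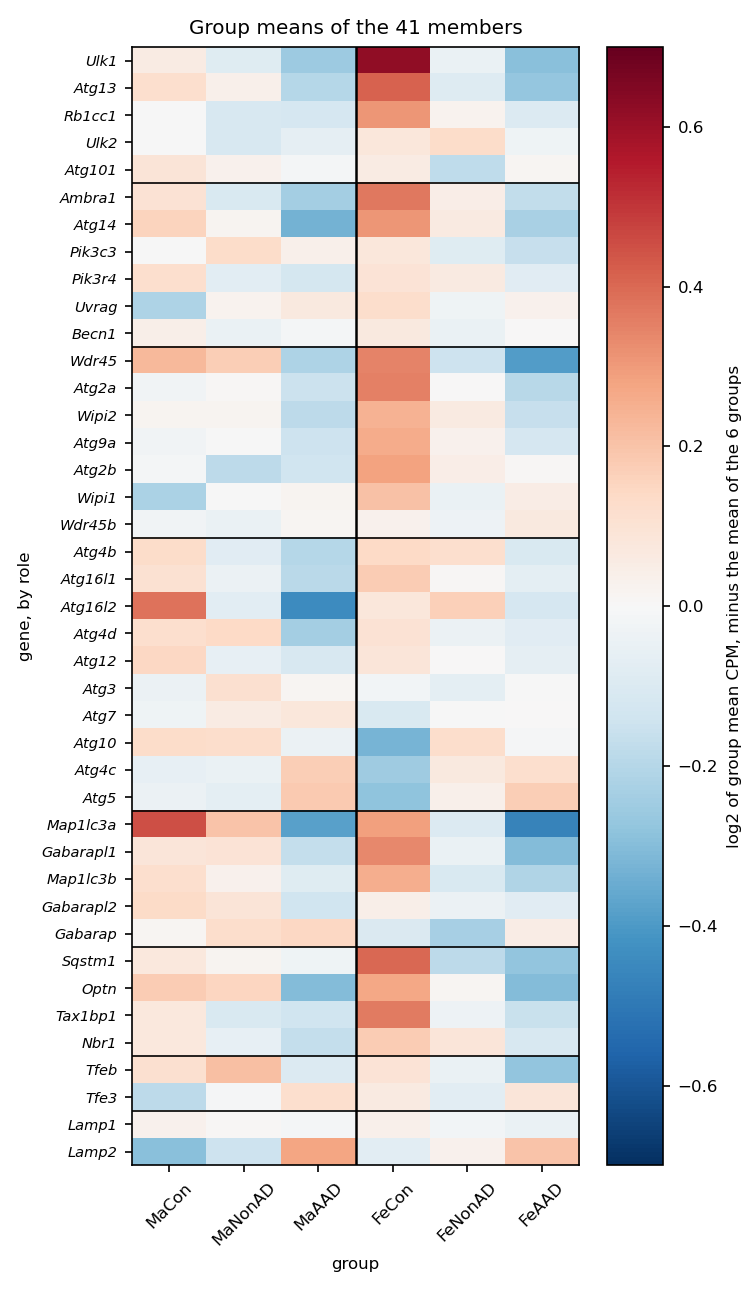
Group means of the 41 members (y axis, by role) in the 6 groups (x axis), as the log2 of the mean CPM minus the mean over the groups, with red above and blue below it. The FeCon column holds the highest of the 6 means for 22 members, and the MaAAD and FeAAD columns hold the lowest for 14 and 12.

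The conjugation enzymes were divided. Atg4b, the main protease that processes ATG8 proteins, was lower in both sexes (log2 fold change -0.33 ± 0.05 in males, adjusted p = 3.33e-06, and -0.25 ± 0.05 in females, adjusted p = 6.77e-05). Atg12, the ubiquitin-like protein, and Atg16l1, which fixes the site of conjugation, were lower in both sexes too, with log2 fold changes of -0.26 and -0.29 in males and -0.15 and -0.24 in females, although Atg12 was not called in FeAAD with the clock genes as covariates (-0.13, adjusted p = 0.131) or without FeCon2 (-0.14, adjusted p = 0.0618). With upper quartile factors (-0.08, adjusted p = 0.306), library size only (-0.08, adjusted p = 0.396), no filter (adjusted p = 0.0572) or only the groups compared (adjusted p = 0.167) the female call of Atg12 was lost too, and with library size only the male one (adjusted p = 0.0509). Atg16l1 was not called with library size only in either sex (-0.22, adjusted p = 0.0599 in males and -0.17, adjusted p = 0.0894 in females), nor in FeAAD with upper quartile factors (-0.17, adjusted p = 0.0536) or in a fit of the compared groups only (-0.23, adjusted p = 0.081). Atg4d, a second protease of the family, was lower in MaAAD (-0.35, adjusted p = 0.0293) and not called in FeAAD (-0.18), and the male call was lost without MaCon5 (-0.27, adjusted p = 0.113) or MaNonAD3 (-0.32, adjusted p = 0.0597) and with upper quartile factors (0.0827), library size only (0.112), no filter (0.0558) or the replicate block (0.051). Atg3 and Atg7, the E2-like and E1-like enzymes, were not called in either sex, at 0.06 and 0.11 in males and 0.02 and 0.11 in females. Atg7 was called higher in FeAAD with library size only (0.19, adjusted p = 0.0277) and upper quartile factors (0.18, adjusted p = 0.038).

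Atg5, the conjugation partner of ATG12, rose in FeAAD (log2 fold change 0.45 ± 0.11, adjusted p = 0.000463). It was at 8.57, 16.1 and 21.3 CPM in FeCon, 17.8, 19.8 and 21.1 CPM in FeNonAD and 16.5, 20.0 and 32.6 CPM in FeAAD, with the lowest level in FeCon9. In males it was at 15.0, 18.8 and 21.3 CPM in MaCon, 17.7, 16.9, 19.7 and 18.4 CPM in MaNonAD and 18.7, 21.3 and 26.2 CPM in MaAAD, and its log2 fold change of 0.22 in MaAAD was not called, but was with upper quartile factors (0.28, adjusted p = 0.0482), in a fit of the compared groups only (0.25, adjusted p = 0.0244) and with the clock genes as covariates (0.31, adjusted p = 0.0453). Atg10, the E2-like enzyme of the ATG12 system and the member with the lowest counts, was higher in FeAAD than FeCon (0.32 ± 0.12, adjusted p = 0.0308), a call that was lost with the clock genes as covariates (0.13, adjusted p = 0.457) and without FeCon10 (0.28, adjusted p = 0.0607), and also with the replicate block (0.0632) and only the groups compared (0.0699). Atg4c was higher in FeAAD (0.37 ± 0.13, adjusted p = 0.0175), a call also lost with the clock genes as covariates (0.25, adjusted p = 0.206) and in a fit of the compared groups only (0.39, adjusted p = 0.0656), and was not called in MaAAD (0.23). Without FeCon10, 22 members were lower and 3 higher in FeAAD.

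Atg16l2, a paralogue of ATG16L1 with less known function, fell by 43.5% in MaAAD (log2 fold change -0.82 ± 0.16, adjusted p = 6.85e-05). It was at 34.8, 42.0 and 45.7 CPM in MaCon, 29.8, 31.6, 28.3 and 29.9 CPM in MaNonAD and 20.1, 23.7 and 25.8 CPM in MaAAD, 3 ranges with no overlap. The ranges of MaAAD and MaNonAD did not overlap for this member only, beside 4.04% of all genes. Neither step was called in the fit of all 48 libraries. The log2 fold change was -0.46 from MaCon to MaNonAD (adjusted p = 0.304) and -0.37 from MaNonAD to MaAAD (adjusted p = 0.32). In females it was at 13.9, 32.4 and 50.5 CPM in FeCon, 30.8, 35.4 and 40.4 CPM in FeNonAD and 17.2, 29.7 and 38.9 CPM in FeAAD, and the log2 fold change of -0.20 in FeAAD was not called. The SD in FeCon was 12.6 CPM against 3.70 CPM in MaCon. The difference between the sexes in the AAD response was -0.62 and was not called (adjusted p = 0.127).

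**Figure D3:**
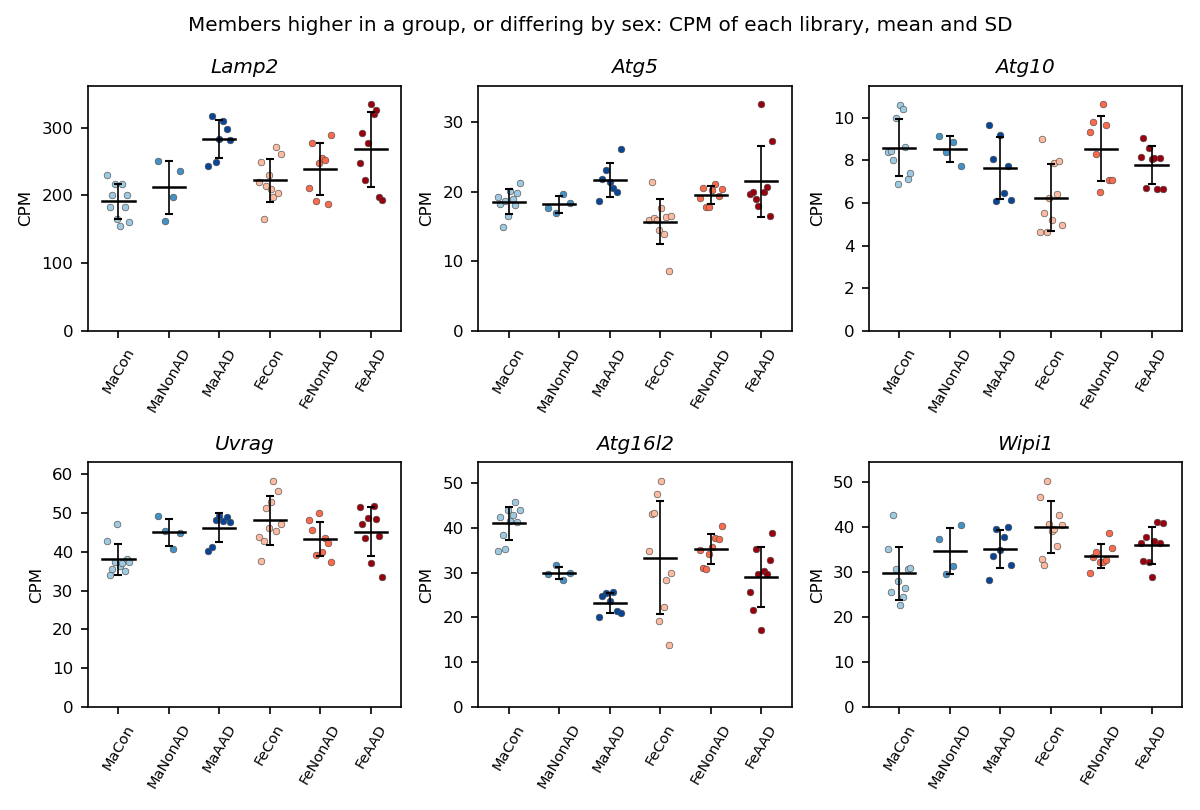
CPM (y axis) of 6 members in each library of the 6 groups (x axis), with the mean as a line and the SD as a bar. Lamp2 is highest in AAD. The male ranges of Atg16l2 do not overlap, though neither step through MaNonAD was called in the fit of all libraries. The FeCon libraries are spread most widely for Atg16l2 and lie lowest for Atg10.

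ATG8 proteins coat the membrane and hold both cargo and fusion factors. Map1lc3a and Map1lc3b encode LC3A and LC3B, and Gabarap, Gabarapl1 and Gabarapl2 the GABARAP branch. Per kilobase of the longest annotated transcript, Gabarap stood at 191 CPM, Gabarapl1 at 139, Map1lc3a at 114, Map1lc3b at 113 and Gabarapl2 at 45.2, averaged over the 48 libraries. Of the other members only Lamp1 (368) and Sqstm1 (161) stood above Map1lc3b. The length of the transcript in use was not known, so the order of Map1lc3a and Map1lc3b could not be told.

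Map1lc3a was lower in both sexes, by 43.8% in MaAAD (log2 fold change -0.83 ± 0.18, adjusted p = 0.000309) and by 40.7% in FeAAD (-0.75 ± 0.17, adjusted p = 0.000277). It was at 108, 142 and 283 CPM in MaCon, 99.9, 196, 153 and 113 CPM in MaNonAD and 73.0, 81.8 and 172 CPM in MaAAD, where the highest library was MaAAD1. In females it was at 113, 139 and 208 CPM in FeCon, 95.1, 106 and 135 CPM in FeNonAD and 64.5, 86.0 and 115 CPM in FeAAD. All but 1 MaAAD library lay below every MaCon library. Gabarapl1 was lower in FeAAD with a log2 fold change of -0.64 ± 0.10 (adjusted p = 1.96e-06), with 250, 320 and 349 CPM in FeCon, 194, 245 and 276 CPM in FeNonAD and 121, 210 and 288 CPM in FeAAD. In males it was at 227, 261 and 308 CPM in MaCon, 259, 281, 262 and 261 CPM in MaNonAD and 166, 211 and 276 CPM in MaAAD, and the log2 fold change of -0.26 was not called (adjusted p = 0.0645), but was with the clock genes as covariates (-0.39, adjusted p = 0.00558) and without MaAAD5 (-0.30, adjusted p = 0.0439).

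Map1lc3b, the transcript of the LC3 form most used as an autophagosome marker, was lower in FeAAD (-0.46 ± 0.10, adjusted p = 0.000321) and not called in MaAAD (-0.20), where the fit with clock genes as covariates called it (-0.30, adjusted p = 0.0439), as did the fit without MaAAD1 (-0.31, adjusted p = 0.0229). It was at 282, 346 and 427 CPM in FeCon, 239, 275 and 301 CPM in FeNonAD and 212, 252 and 343 CPM in FeAAD, with FeAAD8 highest, and in males at 254, 293 and 446 CPM in MaCon, 279, 342, 324 and 254 CPM in MaNonAD and 212, 264 and 411 CPM in MaAAD. Gabarapl2 was lower in MaAAD (-0.27, adjusted p = 0.00487) and not called in FeAAD (-0.12). Gabarap was not called in either sex and had the only positive log2 fold changes of the family, 0.13 in males and 0.16 in females, the latter 0.04 without FeAAD5, the library with the highest Gabarap at 437 CPM.

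Cargo receptors tether ubiquitinated proteins and organelles to ATG8 proteins, and all 4 were lower in FeAAD and 3 of 4 in MaAAD, beside 20.6% and 16.1% of all genes. Sqstm1, the receptor p62, was at 374, 569 and 615 CPM in FeCon, 333, 377 and 392 CPM in FeNonAD and 270, 353 and 473 CPM in FeAAD. Only FeCon2 among the female controls lay within the BAPN range. In males it was at 348, 418 and 611 CPM in MaCon, 429, 447, 442 and 380 CPM in MaNonAD and 316, 371 and 692 CPM in MaAAD. The log2 fold change was -0.68 ± 0.12 in FeAAD (adjusted p = 6.24e-06) and -0.10 in MaAAD (adjusted p = 0.553), and the difference between the sexes, 0.57, was not called (adjusted p = 0.0696). Without MaAAD5, the male library at 692 CPM, the male value was -0.28 (adjusted p = 0.05003, not called) and the difference 0.40 (adjusted p = 0.173), whereas the difference was called without MaAAD7 (0.63, adjusted p = 0.0432). p62 protein is itself degraded by autophagy, so its transcript and protein need not move together.

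Optn, optineurin, was lower in AAD of both sexes by similar log2 fold changes, -0.48 ± 0.10 in males (adjusted p = 0.000233) and -0.57 ± 0.10 in females (adjusted p = 4.35e-06). It was at 34.8, 40.2 and 47.6 CPM in MaCon, 33.2, 48.4, 39.4 and 36.9 CPM in MaNonAD and 24.2, 28.5 and 37.9 CPM in MaAAD, and in females at 34.2, 43.1 and 49.2 CPM in FeCon, 27.6, 37.1 and 42.5 CPM in FeNonAD and 20.4, 28.9 and 35.3 CPM in FeAAD. The highest AAD library overlapped with the lowest controls in both sexes. Tax1bp1 was at 166, 208 and 225 CPM in FeCon, 128, 156 and 170 CPM in FeNonAD and 128, 142 and 152 CPM in FeAAD, and at 148, 165 and 183 CPM in MaCon, 141, 145, 135 and 164 CPM in MaNonAD and 128, 141 and 164 CPM in MaAAD. No FeAAD library reached the lowest FeCon library. Tax1bp1 was lower with a log2 fold change of -0.52 ± 0.06 in FeAAD (adjusted p = 6.92e-09) and -0.21 ± 0.07 in MaAAD (adjusted p = 0.0107), and the male call was lost with upper quartile factors (-0.15, adjusted p = 0.0559) or library size only (-0.14, adjusted p = 0.108). Nbr1 was lower in both sexes, with -0.24 in males and -0.29 in females, and the male call was lost without MaAAD1 (-0.20, adjusted p = 0.058) or MaAAD7 (-0.21, adjusted p = 0.0617) and with upper quartile factors (0.0823), library size only (0.168) or only the groups compared (0.0761).

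**Figure D4:**
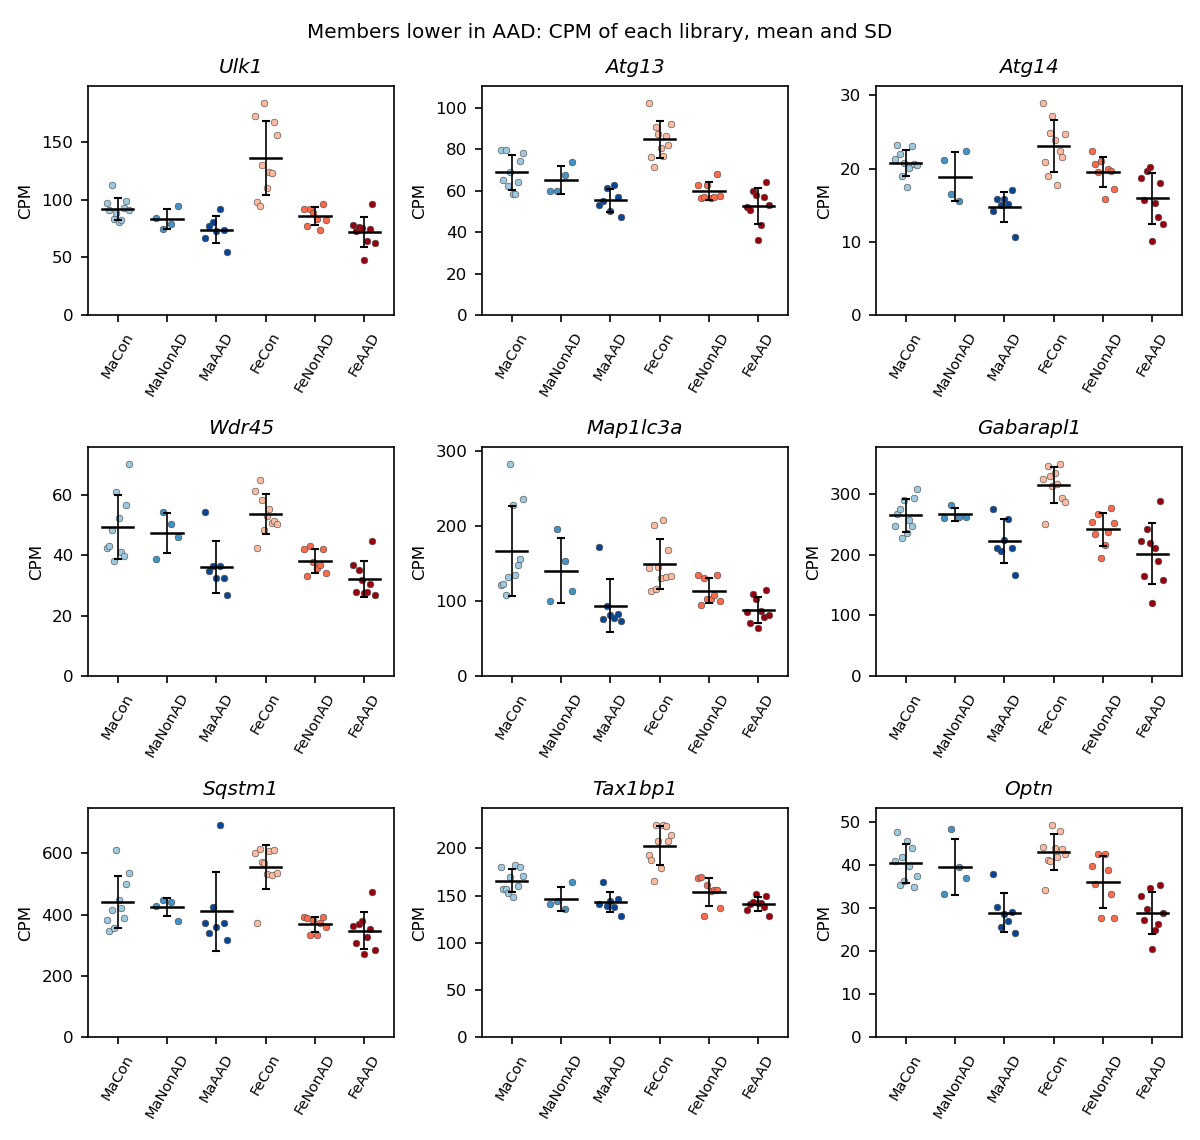
CPM (y axis) of 9 members in each library of the 6 groups (x axis), with the mean as a line and the SD as a bar. FeCon has the highest mean for every member shown except Map1lc3a, which is highest in MaCon. MaAAD1 lies above the other MaAAD libraries for Map1lc3a.

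Of the transcription factors of lysosomal and autophagy genes, Tfe3 was higher in MaAAD (0.31 ± 0.08, adjusted p = 0.00151) and not called in FeAAD (0.02), and Tfeb was not called, with -0.20 in males and -0.37 in females (adjusted p = 0.0539). With the clock genes as covariates Tfeb was lower in MaAAD (-0.55, adjusted p = 0.00222) and in FeAAD (-0.46, adjusted p = 0.0102). Both factors bind the E-box CACGTG. RefSeq promoters of GRCm38.p6, from 250 bases before to 50 bases after the start site, were matched for 34 of the 41 members and searched for CACGTG and for TCACGTGA, which contains it; both read the same on either strand. CACGTG was in the promoters of 5 of the 34 members (14.7%), Atg3, Atg5, Atg7, Atg14 and Lamp1, beside 8.09% of 27025 genes. TCACGTGA was in that of Atg3 alone (2.94%), beside 1.12% of genes. These 5 are shown because they are the members with the motif. The sequences of 30 bases are from RefSeq, 5′ to 3′ on the strand of the gene, with CACGTG in capitals:
Atg3, chr16:45158735-45158764, plus strand: CACGTGtcctgggagagtcgagtCACGTGa
Atg5, chr10:44268313-44268342, plus strand: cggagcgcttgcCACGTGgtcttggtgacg
Atg7, chr6:114670952-114670981, plus strand: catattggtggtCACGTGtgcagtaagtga
Atg14, chr14:47568418-47568447, minus strand: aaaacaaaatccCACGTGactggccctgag
Lamp1, chr8:13159096-13159125, plus strand: atatCACGTGgtccagcgccCACGTGatgc

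The promoters of Atg3 and Lamp1 held 2 and 4 copies. The 5 genes did not share a direction: Atg14 was lower in AAD of both sexes, Atg5 was higher in FeAAD, and Atg3, Atg7 and Lamp1 were not called in AAD against Con. A match of letters is a description of these windows only.

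Lamp2, a membrane protein of lysosomes that autophagosomes fuse with, was the member that rose in AAD of both sexes. It was at 154, 191 and 230 CPM in MaCon, 250, 163, 197 and 236 CPM in MaNonAD and 243, 283 and 318 CPM in MaAAD, and no MaAAD library overlapped with MaCon. In females it was at 165, 217 and 271 CPM in FeCon, 187, 250 and 290 CPM in FeNonAD and 193, 277 and 335 CPM in FeAAD, which overlapped widely. The log2 fold change was 0.57 ± 0.11 in MaAAD (adjusted p = 9.42e-05) and 0.27 ± 0.11 in FeAAD (adjusted p = 0.0364), and the female call was lost without FeAAD5 (0.22, adjusted p = 0.0938), with the replicate block (0.0506) and with only the groups compared (0.0687). Lamp1, its abundant relative, was at a log2 fold change of -0.04 in males and -0.08 in females and was not called.

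Ratios of paralogues within a library, which do not depend on how libraries are scaled, were compared between AAD and Con by two-sided exact permutation tests over libraries. Of 18 tests (9 pairs in each sex), 15 had a Benjamini-Hochberg adjusted p under 0.05. Ratios of other gene pairs were not tested for comparison, and 54.4% of all genes were called in AAD in at least 1 sex. The clock genes were not included in the ratio tests. The log2 ratio of Map1lc3a to Map1lc3b counts was -0.98 ± 0.26 (SD, n = 10) in MaCon and -1.59 ± 0.19 (SD, n = 7) in MaAAD, a difference of -0.61 (exact permutation adjusted p = 0.00074), and the difference was -0.28 in females (exact permutation adjusted p = 0.0163). LC3A transcripts thus fell relative to LC3B transcripts in both sexes. The ratio of Lamp1 to Lamp2 fell by 0.61 in males and by 0.34 in females (exact permutation adjusted p = 0.00074 and 0.0207), and that of Wdr45 to Wdr45b by 0.49 and 0.79 (exact permutation adjusted p = 0.0207 and 0.00074).

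Ulk1 fell relative to Ulk2 by 0.26 in males and by 0.79 in females on the log2 scale (exact permutation adjusted p = 0.023 and 0.00156). Gabarapl1 fell relative to Gabarap by 0.43 in males and by 0.81 in females (exact permutation adjusted p = 0.0254 and 0.00074), although the male difference was not called when medians replaced means. Wipi1 rose relative to Wipi2 by 0.47 and 0.27 (exact permutation adjusted p = 0.0163 and 0.0293), and the female difference was not called with medians. Pairs differed by sex in which ratios were called: Atg16l1 to Atg16l2 rose by 0.53 in males (exact permutation adjusted p = 0.00074) and was at -0.10 in females (0.652), Atg2a to Atg2b was at -0.01 in males (0.917) and fell by 0.29 in females (0.0252), and Tfeb to Tfe3 fell by 0.44 in males (0.0163) and was at -0.38 in females (0.0687), all by the exact permutation test. Differences between the sexes in these ratios were not tested.

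**Figure D5:**
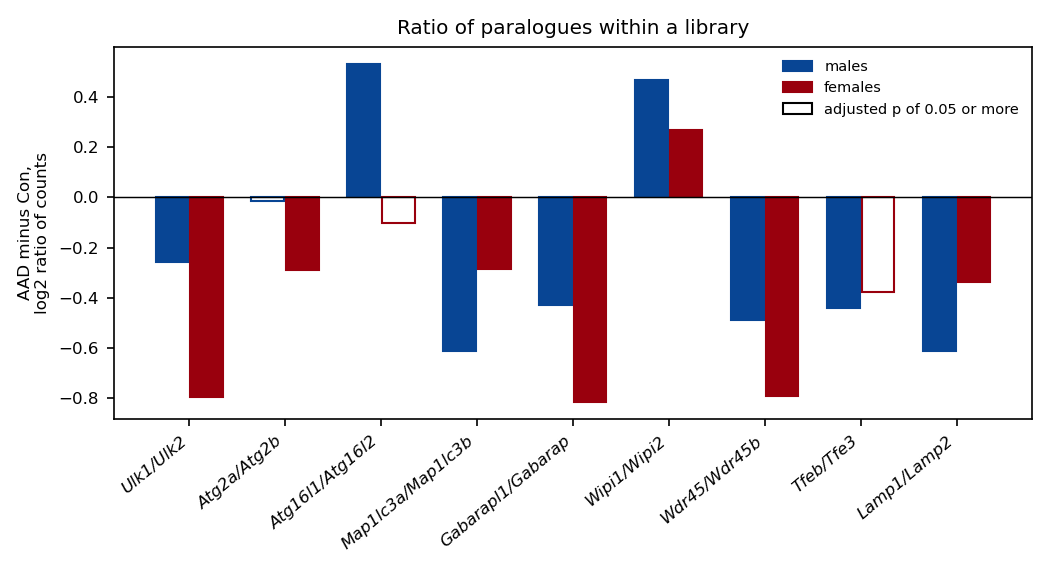
Difference between AAD and Con in the mean log2 ratio of counts (y axis) for 9 pairs of paralogues (x axis) in males (blue) and females (red), with open bars where the exact permutation adjusted p was 0.05 or more. The ratio fell in AAD for most pairs, with bars above 0 for Wipi1/Wipi2 in both sexes and Atg16l1/Atg16l2 in males.

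BAPN without a detectable lesion was accompanied by fewer calls. In FeNonAD against FeCon, 10 members were lower and 2 higher, beside 7.66% and 6.87% of all genes. The lower members were Ulk1 (log2 fold change -0.67 ± 0.11, adjusted p = 8.25e-05), Sqstm1 (-0.59 ± 0.12, adjusted p = 0.000793), Atg13 (-0.50 ± 0.08, adjusted p = 7.72e-05), Wdr45, Tax1bp1, Gabarapl1, Map1lc3b, Atg2a, Ambra1 and Atg9a, between -0.49 and -0.23 for the last 7. The Atg9a call (adjusted p = 0.0445) was lost with library size only (0.18), upper quartile factors (0.123), the replicate block (0.1), no filter (0.0716) and only the groups compared (0.0972). It was also lost without FeCon10, FeNonAD8, MaAAD1, MaCon5, MaNonAD2 or MaNonAD3. With library size only the calls of Ambra1 (0.0785) and Atg2a (0.055) were lost, and Ambra1 also with upper quartile factors (0.0502). Atg10 rose by 0.45 ± 0.13 (adjusted p = 0.0117), from 4.62, 5.87 and 9.01 CPM in FeCon to 6.50, 8.82 and 10.6 CPM in FeNonAD, and Atg5 by 0.31 ± 0.11 (adjusted p = 0.0441), a call lost with the replicate block (0.0708), with only the groups compared (0.0662) and without FeCon10 (0.0516) or FeNonAD8 (0.0707). Atg13 was the only member whose FeNonAD and FeCon ranges did not overlap, beside 0.741% of all genes. With the clock genes as covariates, only Tax1bp1 (-0.37, adjusted p = 0.00983) and Sqstm1 (-0.55, adjusted p = 0.0275) were called, and Ulk1 was at -0.35 (adjusted p = 0.109). The other lower members lay between -0.40 and -0.14 in that fit, where Map1lc3b was at -0.35 and Wdr45 at -0.40, beside -0.36 and -0.49 without the covariates. Proliferation markers were higher for 5 of 6 and smooth muscle markers lower for 3 of 12 in FeNonAD.

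In MaNonAD against MaCon no member was called by edgeR, where 0.443% of genes were higher and 0.18% lower. DESeq2 called none either, and at an unadjusted p under 0.05 edgeR had 4 members lower (Atg4b, Atg12, Atg16l2 and Tax1bp1) and 1 higher (Uvrag), beside 5.78% and 6.24% of all genes at that threshold. Atg16l2 was the only member whose MaNonAD and MaCon ranges did not overlap, beside 1.26% of all genes, with a log2 fold change of -0.46 ± 0.19 (adjusted p = 0.304), and it was called in a fit of the compared groups only (-0.45, adjusted p = 0.0276). The group of 4 libraries limits this comparison.

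Between the outcomes of BAPN, Atg4b (-0.22 ± 0.05, adjusted p = 0.0019) and Optn (-0.31 ± 0.10, adjusted p = 0.0239) were lower in FeAAD than FeNonAD and none was higher, beside 5.0% and 13.2% of all genes. The mean level of Atg4b was 69.3 ± 3.45 CPM (SD, n = 8) without and 59.3 ± 4.73 CPM (SD, n = 9) with AAD. The Optn call was lost without FeAAD5 (-0.26, adjusted p = 0.077). With the clock genes as covariates 7 members were lower, the further ones being Ulk1 (-0.30), Atg13 (-0.23), Atg14 (-0.32), Wipi2 (-0.24) and Gabarapl1 (-0.28). Between the same groups 8 of 12 contractile smooth muscle markers were lower, and 10 of 10 macrophage, 6 of 6 neutrophil and 6 of 6 proliferation markers were higher, and their part was not tested. No member was called by edgeR in MaAAD against MaNonAD, beside 0.409% of all genes in either direction, with 7 members lower and 1 higher at an unadjusted p under 0.05, beside 6.36% and 12.3% of all genes, and 1 member called by DESeq2. Over the 3 groups of a sex the means fell stepwise from Con through NonAD to AAD for 21 members in males and 26 in females, and rose stepwise for 7 and 4, a description in which neighbouring steps mostly did not pass a test.

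Control females had more of several members than control males. In MaCon against FeCon, 13 members were lower and 1 was higher, beside 7.9% and 6.38% of all genes. The lower ones were Ulk1 (-0.56 ± 0.11, adjusted p = 0.000317), Wipi1 (-0.43 ± 0.09, adjusted p = 0.00139), Atg2a, Uvrag, Sqstm1, Rb1cc1, Atg13, Atg2b, Tax1bp1, Atg9a, Ambra1, Tfe3 and Wipi2, and Atg10 was higher (0.46 ± 0.12, adjusted p = 0.00752). Wipi1 was at 22.8, 29.4 and 42.8 CPM in MaCon and 31.6, 40.1 and 50.4 CPM in FeCon, and the ranges overlapped for all 41 members. In BAPN groups Wipi1 was at 37.4, 29.5, 31.3 and 40.5 CPM in MaNonAD, 28.3, 35.0 and 40.0 CPM in MaAAD, 29.8, 33.1 and 38.8 CPM in FeNonAD and 28.9, 36.6 and 41.1 CPM in FeAAD. With the clock genes as covariates 2 members, Tax1bp1 and Uvrag, were called lower in MaCon. Without FeCon10, 10 members were called. The calls of Ambra1, Rb1cc1, Sqstm1 and Wipi2 were lost without FeCon10 and with upper quartile factors, and those of Ambra1 and Wipi2 also with library size only, no filter on low counts or the replicate block. With library size only the calls of Rb1cc1 (adjusted p = 0.082) and Atg2b (0.0568) were lost too. With only the groups compared Rb1cc1 (0.0678), Atg2b (0.0532) and Ambra1 (0.0502) were not called. Sqstm1 was lost with no filter (0.0528) and Ambra1 without MaCon5 (0.0527). This comparison, FeNonAD against FeCon and FeAAD against FeCon share the FeCon libraries.

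Few genes of any kind were called between the sexes under BAPN, and MaNonAD held 4 libraries. No member was called by edgeR or DESeq2 in MaNonAD against FeNonAD or in MaAAD against FeAAD, beside 0.0624% and 0.0901% of all genes, and 4 members and 1 member had an unadjusted p under 0.05 in edgeR, beside 6.47% and 2.22% of all genes. The response to AAD was called as differing between the sexes for 1 of the 41 members, Ulk1, beside 1.34% of all genes. Its log2 fold change was less negative in males by 0.60 ± 0.16 (adjusted p = 0.0391), and 13 members had an unadjusted p under 0.05, beside 15.4% of all genes. The Ulk1 difference was not called with the clock genes as covariates (0.32, adjusted p = 0.538), without FeCon10 (0.58, adjusted p = 0.0667) or MaAAD5 (0.54, adjusted p = 0.087), with the replicate block (0.62, adjusted p = 0.0522), without the filter on low counts (0.61, adjusted p = 0.0502) or in a fit of the compared groups only (0.62, adjusted p = 0.0812). The number of members called in this contrast was 4 without MaAAD1 or MaCon5, 5 without FeCon2, 2 without MaAAD7, 0 without FeCon10 or MaAAD5 and 5 in DESeq2. No member was called by edgeR or DESeq2 for the sex difference in the NonAD response, beside 0.416% of all genes, with 14 members at an unadjusted p under 0.05, beside 12.1% of all genes, or in the step from NonAD to AAD, beside 0.0% of genes, with 0 members at an unadjusted p under 0.05, beside 1.04% of genes.

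Other genes of the pathway were read from lists of relatives, regulators and effectors. Of 23 genes of mTORC1, AMPK and nutrient signalling, which restrain or activate ULK1, 10 were lower and 1 higher in FeAAD, beside 20.6% and 23.8% of all genes, and 5 lower and 1 higher in MaAAD, beside 16.1% and 18.9%. Stk11, the kinase LKB1 upstream of AMPK, was lower in both sexes (-0.66 in females and -0.39 in males), as was Foxo3 (-0.53 and -0.50), while Sesn2, a sestrin induced by amino acid shortage, was higher in MaAAD (0.60). Of 17 organelle receptors and mitophagy genes, 6 were lower and 1 higher in FeAAD and 4 lower in MaAAD, among them Pink1 (-0.89 and -0.74), a kinase that marks damaged mitochondria, and the receptor Calcoco1 (-0.92 and -0.72), in females and males. Their median log2 fold changes were -0.25 and -0.15 for the signalling list and -0.17 and -0.10 for the receptors, in females and males, beside 0.00 and -0.03 over all genes.

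The lysosomal list moved otherwise. Of 22 hydrolase, proton pump and related genes, 9 were higher and 1 lower in MaAAD, and 8 were higher and 3 lower in FeAAD. Of all genes 18.9% were higher and 16.1% lower in MaAAD, and 23.8% and 20.6% in FeAAD. The median log2 fold change of the lysosomal list was 0.21 in males and 0.11 in females. Atp6v0d2, a proton pump subunit known from macrophages and osteoclasts, was higher by a log2 fold change of 2.12 in males and 1.95 in females, and Tfec, a relative of TFEB known from macrophages, by 2.03 and 2.37. Gla, α-galactosidase A, was higher by 0.78 and 0.65, while Scarb2, a lysosomal membrane receptor, was lower in FeAAD (-0.73) and FeNonAD (-0.80). Macrophage markers were higher in the same groups, and their part was not tested. Among 12 other core and membrane genes, Vmp1, an endoplasmic reticulum scramblase gene whose transcript overlaps the microRNA gene Mir21a, was higher in both sexes (0.99 in males and 1.11 in females), and Bcl2, an inhibitor of beclin 1, was lower (-0.68 and -0.53). In that list 2 genes were higher and 4 lower in MaAAD, and 3 higher and 4 lower in FeAAD, with medians of -0.09 and -0.13. Of 13 fusion and tethering genes, 3 were higher in MaAAD and none lower, and 2 were higher and 3 lower in FeAAD, with Ykt6, a SNARE of autophagosome fusion, higher in both (0.26 and 0.26), and medians of 0.08 in males and -0.04 in females.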

How the data were processed

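RNA was sequenced from lesioned segments of the thoracic aorta (ascending aorta, arch and proximal descending aorta), with strand-specific mRNA libraries on a DNA NanoBall platform. Which segments were used from mice without a lesion was not stated. The deposited values are expected counts, not scaled to library size, in 1 column for each mouse. The submitters' processing notes name Bowtie2, RSEM 1.3.1 and GRCm39 without giving their roles. Of the deposited values 4.99% were not whole, because reads matching several genes are shared out, and all were rounded to whole counts, so the planned count test was kept for expected counts. The precision of each value rests on library totals of 13548000 to 17281273 counts. Groups and replicate numbers were taken from the labels.

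edgeR 4.0.16 in R 4.3.3 (filterByExpr, TMM factors of 0.874 to 1.08, robust quasi-likelihood fit) was run on all 48 libraries with a mean for each of the 6 groups, over 14431 genes, and calls had a Benjamini-Hochberg adjusted p under 0.05. Standard errors were approximated as the size of the log2 fold change over the square root of F. The script was tested on simulated data. Paralogue ratios were log2 ratios of counts plus 0.5, tested by two-sided exact permutation in scipy 1.17.1, with adjustment over 18 tests. Named members were the 16 with the largest called change in AAD, those called in NonAD and those called between sexes or in an interaction (at most 8 per comparison). At most 4 called genes per pathway list were named. Levels per kilobase used the longest GENCODE M21 transcript. Genes, lists and tests were chosen with earlier results of these data known. The alternatives were DESeq2 1.42.0, other scalings, no filter, no robust estimation, the replicate block, only the groups compared, leaving out libraries and, after the data were seen, clock genes as covariates and further libraries left out.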

Additional observations from a re-analysis of the deposited data

Results flagged for a closer look

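Of 114 groups of library values tested with Dixon's criterion (19 members in 6 groups, on the log2 scale), 9 had a library set apart from the rest, and chance flags about 1 in 20. FeCon9 had the lowest Atg5 of FeCon (8.57 CPM). FeCon2 had the lowest Sqstm1 (374 CPM) and Optn (34.2 CPM) of FeCon. FeAAD8 had the highest Map1lc3b of FeAAD (343 CPM), and FeAAD5 the lowest Ambra1 (30.6 CPM). In males, MaAAD7 had the lowest Atg14 of MaAAD (10.7 CPM), MaAAD1 the highest Map1lc3a (172 CPM) and MaAAD5 the highest Sqstm1 (692 CPM). MaNonAD2 had the highest Gabarapl1 of MaNonAD (281 CPM) in a group whose other libraries lay between 259 and 262 CPM. The AAD response of Ulk1 differed between the sexes in the test of that difference, with a log2 fold change less negative in males by 0.60 (adjusted p = 0.0391). That call was lost with the clock genes as covariates (0.32, adjusted p = 0.538), without FeCon10 (adjusted p = 0.0667) or MaAAD5 (0.087), with the replicate block (0.0522), with no filter on low counts (0.0502) and with only the groups compared (0.0812). Its group means were 91.8 and 73.9 CPM in MaCon and MaAAD, and 136 and 72.1 CPM in FeCon and FeAAD.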

How the results depend on the processing

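None of the 50 called fold changes of named members and no paralogue ratio changed sign under an alternative, while some uncalled fold changes did. Some counts of members moved by more than 1.5 times. With library size only, 9 members were lower in MaAAD, and with upper quartile factors 5 were higher. Members higher in FeAAD numbered 2 with the replicate block, 1 with only the groups compared and 2 with clock genes as covariates. MaNonAD against MaCon gave 1 member with only the groups compared, and FeNonAD against FeCon gave 2 with clock genes as covariates. MaAAD against MaNonAD gave 0 to 3 members with a library left out and 1 in DESeq2. FeAAD against FeNonAD gave 1 with only the groups compared, 1 to 4 with a library left out and 7 with clock genes as covariates. MaCon against FeCon gave 2 with clock genes as covariates. The sex difference of the AAD response gave 2 members with DESeq2 size factors or library size only, 0 without a filter, with the replicate block, with only the groups compared or with clock genes as covariates, 0 to 5 with a library left out and 5 in DESeq2. The cause of these shifts was not tested. With medians in place of means the ratio of Gabarapl1 to Gabarap in males (-0.42) and of Wipi1 to Wipi2 in females (0.25) were no longer called. Of the 50 called fold changes of named members, 20 were not called with clock genes as covariates, 7 with only the groups compared and 6 each with the replicate block, library size only, upper quartile factors or FeCon10 left out, and all 50 were called in DESeq2. Same-numbered libraries did not deviate together: the mean correlation over 15 pairs of groups lay between -0.21 and 0.14, and no pair of groups had every correlation over 0.1. With the replicate block 14 members were lower in MaAAD and 21 in FeAAD.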
